A study of Homo sapiens with 4 samples.

Results

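The genes of glycolysis, lactate handling and the pentose phosphate pathway were followed in A375, an established line from a human melanoma, under octanoate. The 30 genes were chosen by name, as the steps from glucose uptake to lactate export and the branch that makes ribose and NADPH. All 30 were present among the 56832 genes of the deposited table. Each averaged 10 or more normalised counts (reads divided by a size factor per library) across the 4 libraries, which placed it among the 20250 genes tested. The vehicle group was wild-type A375 grown in DMEM with FBS and given isopropanol for 48 h, and the octanoate group was the same line given 1 mM octanoate, a saturated medium-chain fatty acid, for 48 h. RNA was sequenced from 2 libraries per group. The labels do not say whether the libraries of a group came from separate cultures, so the p-values measure the spread between these libraries only, which may be technical. In bulk RNA, fewer cells of a kind and less RNA per cell cannot be told apart.

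Glycolysis splits glucose into pyruvate in the cytosol, with a small yield of ATP. Many tumour cells run it fast even when oxygen is present and export much of the carbon as lactate. The pentose phosphate pathway leaves glycolysis at glucose phosphate. Its oxidative arm makes NADPH, and its non-oxidative arm exchanges sugars between ribose phosphate and the glycolytic intermediates. Several glycolytic genes are known targets of hypoxia-inducible factors and MYC.

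Of the 30 genes, 4 rose and 11 fell under octanoate, and 15 did not pass the test. The test was limma on log2(normalised count + 1), with Benjamini-Hochberg adjustment over all tested genes and an adjusted p under 0.05. The 15 called of 30 stand beside 29.9% called in either direction over all tested genes. Over all tested genes 16.2% rose and 13.7% fell by the same rule, against 13.3% and 36.7% of the 30 genes. Among tested genes with a mean of at least 1000 normalised counts, the range that holds 29 of the 30, the shares were 18.1% and 20.0%, or 38.1% in either direction. The risers were PFKP, PFKM, ENO2 and SLC16A3. The fallers were SLC2A1, HK2, PFKFB3, ALDOC, TPI1, GAPDH, PGAM1, LDHA, PGD, TKT and TALDO1. No change reached 2-fold: log2 differences lay between -0.49 and 0.49. Their median was -0.12, against 0.01 over all tested genes and -0.02 over those with a mean of at least 1000. By step, 2 of 11 genes of uptake and upper glycolysis rose and 3 fell, 1 of 9 genes of lower glycolysis rose and 4 fell, 1 of 4 lactate genes rose and 1 fell, and 3 of 6 pentose phosphate genes fell. Reads of the 30 genes together took 1.86% and 1.82% of all reads in vehicle, and 1.69% and 1.64% under octanoate. Most of these reads came from ENO1, GAPDH and PKM, which together took 1.04% and 1.01% in vehicle and 0.926% and 0.899% under octanoate, and of which only GAPDH was called.

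The groups did not overlap for 24 of the 30 genes, against 63.1% of all tested genes. Octanoate was above vehicle in 6 (20.0% of the 30) and below in 18 (60.0% of the 30), where the shares over all tested genes were 32.6% and 30.5%. Within each group the 30 genes also leaned one way. Vehicle 1 was above vehicle 2 for 27 of the 30, with a median log2 gap of 0.11 (0.06 over tested genes with a mean of at least 1000). Octanoate 1 was above octanoate 2 for 29 of the 30, with a median gap of 0.07 (0.03 over the same genes). The gap within vehicle is close in size to the median difference between the groups (-0.12), and the part of these gaps in the result was not tested.

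The 15 calls were not equally firm. Without vehicle 1 the count was 5 higher and 4 lower, where 13.7% and 7.53% of all tested genes were called. Without octanoate 2 it was 4 higher and 4 lower (12.7% and 9.0% of all), and without octanoate 1 it was 4 higher and 8 lower (12.3% and 11.2% of all). Without vehicle 2 it was 2 higher and 12 lower (11.5% and 10.9% of all). The 6 genes that stayed called without each library in turn were SLC2A1, PFKP, PFKFB3, ALDOC, PGAM1 and SLC16A3. With a variance prior that ignores the expression level, limma called SLC16A3 alone (1 higher, 0 lower), beside 5.41% higher and 2.62% lower of all tested genes. With no filter on low values it called 2 higher and 3 lower (3.68% and 2.3% of all genes then tested), and with TMM factors 4 and 9 (17.2% and 12.0%). On recovered reads edgeR called 4 higher and 12 lower (17.1% and 14.9% of all), and DESeq2 4 and 15 (15.2% and 15.1%).

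**Figure D1:**
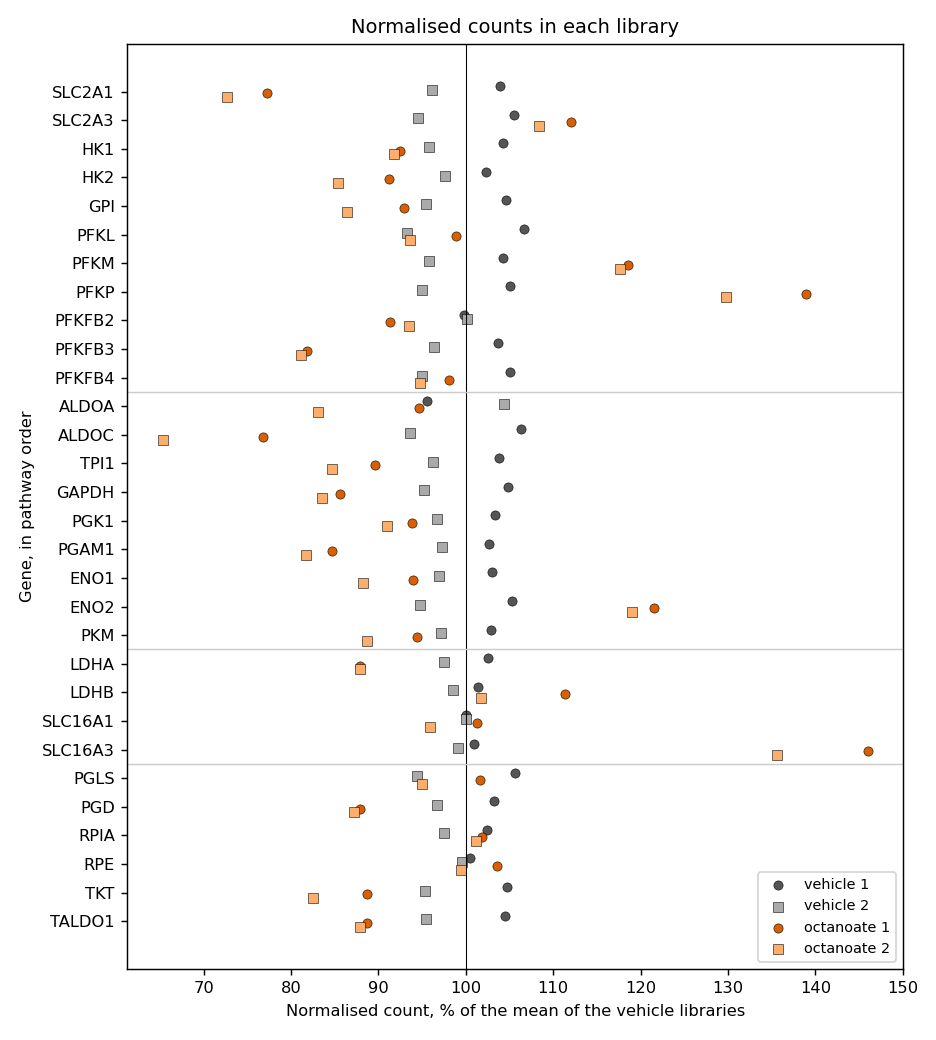
Normalised count of each gene in each library (horizontal axis, percent of the mean of the vehicle libraries), in pathway order (vertical axis). Circles are the libraries numbered 1 and squares those numbered 2; the circle lies to the right of the square in nearly every row, for 27 of 30 genes in vehicle (grey) and 29 of 30 in octanoate (orange).

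Recovered read totals ran from 67785956 to 78005035 per library. Of the melanocyte lineage markers, 8 of 9 had a mean of at least 10, and their sum was 45156 to 49411 in vehicle and 38697 to 43768 in octanoate. SOX10, the neural crest factor of the lineage, ranged from 34072 to 41363 normalised counts and made up most of that sum. TYR, the pigment enzyme tyrosinase, had a mean of 2.97. In octanoate S100B (1917 and 1746, against 4234 and 3741 in vehicle) and MITF (2414 and 2511, against 3533 and 3330) were lower. PMEL (98.2 and 95.4, against 65.8 and 65.9) and S100A1 (165 and 167, against 127 and 153) were higher. The 4 dedifferentiated melanoma markers summed to 33866 to 36054 in vehicle and 38583 to 39197 in octanoate. Among them AXL and EGFR were higher and NGFR lower in both octanoate libraries. The 4 general neural crest or melanoma markers summed to 249141 to 269349 in vehicle and 280117 to 287967 in octanoate. Of the leukocyte markers 2 of 5 had a mean of at least 10, led by LYZ (664), whereas PTPRC had 7.26 and CD3E 1.97, and the list summed to 600 to 670 in vehicle and 725 to 777 in octanoate. Of the keratinocyte markers 2 of 4 did so, and the list summed to 5673 to 6703 in vehicle and 4787 to 6441 in octanoate. KRT10 had a mean of 5260 and KRT1 was at 0 in each library, while KRT14 had 1110 and 942 in vehicle and 266 and 218 in octanoate. The summed count of 3 endothelial markers was 201 to 207 in vehicle and 338 to 347 in octanoate, and that of the 4 fibroblast markers was 1841 to 1877 and 1549 to 1621. Their part in the results was not tested.

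Glucose enters cells through transporters of the SLC2A family. SLC2A1 encodes GLUT1, the widespread basal transporter, and lies at chr1:42925375-42959176 on the minus strand (GENCODE 29, GRCh38). Its normalised counts were 15895 and 14703 in vehicle and 11818 and 11125 in octanoate. Both octanoate libraries were thus below both vehicle libraries, by more than the gap within either group. SLC2A1 fell by 25.0%, which is -0.41 on the log2 scale (SE 0.06; adjusted p 6.89e-06 by limma). SLC2A3, which encodes the high-affinity transporter GLUT3, had 4503 ± 349 normalised counts in vehicle and 4961 ± 118 in octanoate (n = 2 each, SD). Its log2 difference of 0.14 did not pass the test (95% interval 0.01 to 0.27, limma adjusted p 0.0928). SLC2A3 shares 2009 bases at 96.9% identity with SLC2A14, so its count is uncertain. Per kb of exon, SLC2A1 made up 76.7% and 77.2% of both transporters in vehicle and 69.7% and 69.1% in octanoate.

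Hexokinases trap glucose as glucose phosphate. HK2, the inducible isoform that many tumours express, fell from 10252 ± 341 to 9050 ± 429 normalised counts (n = 2 each, SD), which is -0.18 on the log2 scale (SE 0.06; adjusted p 0.0209 by limma). It was not called without vehicle 1 or without octanoate 2, where the adjusted p reached 0.252, and it shares 2755 bases with the pseudogene HK2P1. HK1, the housekeeping isoform, had 16813 ± 1006 in vehicle and 15487 ± 85.6 in octanoate (n = 2 each, SD; log2 difference -0.12, limma adjusted p 0.135). The share of HK2 in the hexokinase pair was 32.0% and 32.8% in vehicle and 32.1% and 30.8% in octanoate, so the groups overlapped. GPI, the isomerase that turns glucose phosphate into fructose phosphate, had a log2 difference of -0.16 (limma adjusted p 0.0556), just short of the threshold, and edgeR (adjusted p 0.0300) and DESeq2 (adjusted p 0.0147) called it.

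Phosphofructokinase commits the sugar to glycolysis and is built from 3 isoforms. The platelet-type isoform PFKP, at chr10:3066333-3137712 on the plus strand, had 12894 and 11650 normalised counts in vehicle and 17052 and 15929 in octanoate. It rose by 34.4%, which is 0.43 on the log2 scale (SE 0.06; adjusted p 7.21e-06 by limma), with no overlap of the groups. The muscle-type isoform PFKM, which shares 628 exon bases with SENP1 on the opposite strand, had 10228 and 9398 in vehicle and 11629 and 11548 in octanoate. PFKM rose by 0.24 on the log2 scale (SE 0.06, limma adjusted p 0.00261), though without vehicle 2 its adjusted p was 0.0600. The liver-type isoform PFKL did not differ by more than its replicates: 6518 and 5702 against 6044 and 5718, a log2 difference of -0.05 (95% interval -0.19 to 0.08, limma adjusted p 0.592). PFKP therefore went from 44.0% and 44.2% of the phosphofructokinase counts per kb in vehicle to 50.2% and 49.2% in octanoate, while PFKL went from 28.4% and 27.6% to 22.7% and 22.6%.

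The PFKFB enzymes make and break the regulatory fructose bisphosphate, a strong activator of phosphofructokinase. PFKFB3, whose kinase activity far exceeds its phosphatase activity, had 10932 and 10166 normalised counts in vehicle and 8629 and 8556 in octanoate. It fell by 18.5%, which is -0.29 on the log2 scale (SE 0.06; adjusted p 0.000345 by limma), and the octanoate libraries lay well below both vehicle libraries. PFKFB4 had 5392 ± 383 and 5198 ± 128, and PFKFB2 had 1774 ± 4.34 and 1640 ± 27.7 (n = 2 each, SD, vehicle then octanoate). Neither passed the test (limma adjusted p 0.580 and 0.217). At the control point of glycolysis the transcripts thus went in different directions. PFKP and PFKM were higher and PFKFB3 was lower, whereas PFKL, PFKFB2 and PFKFB4 were not called.

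**Figure D2:**
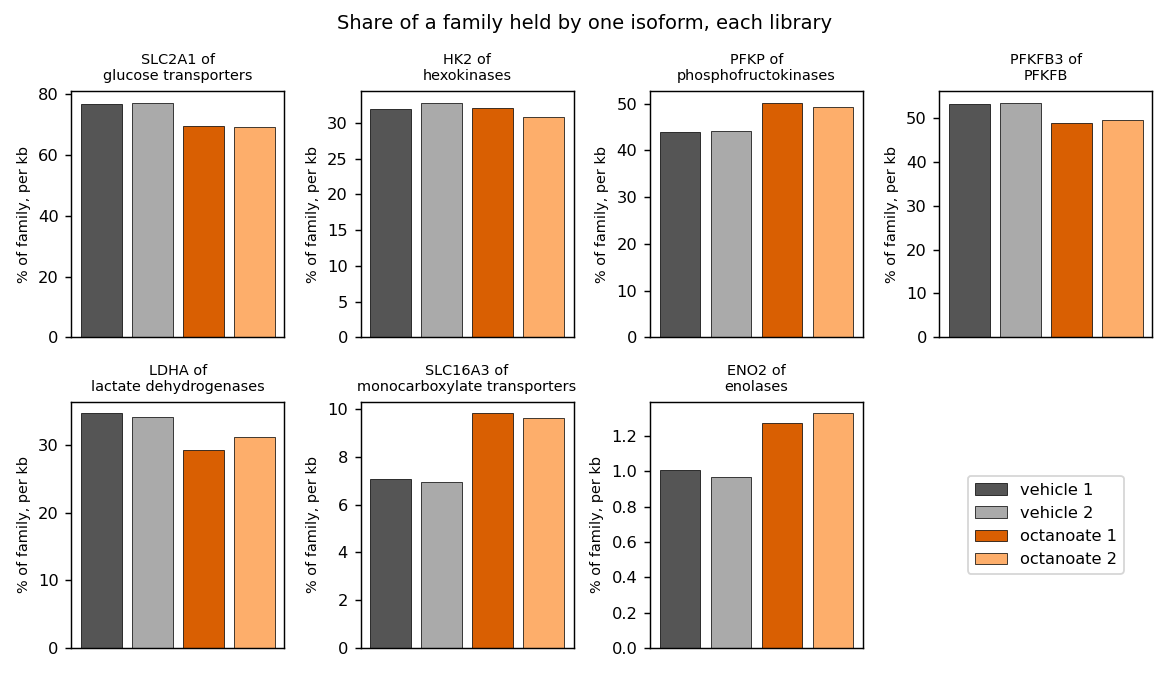
Share of the family's normalised counts per kb of exon held by the named isoform (vertical axis, percent, from 0) in each of the 4 libraries (bars). SLC2A1, PFKFB3 and LDHA hold a smaller share and PFKP, SLC16A3 and ENO2 a larger share in both octanoate libraries, whereas the HK2 bars overlap between the groups.

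Below phosphofructokinase, aldolase cuts the sugar into trioses. ALDOC, the brain-type aldolase, lies at chr17:28573115-28577264 on the minus strand and had the largest fall of the 30 genes. Its normalised counts were 2329 and 2051 in vehicle and 1683 and 1431 in octanoate. It fell by 28.9%, which is -0.49 on the log2 scale (SE 0.08; adjusted p 3.35e-05 by limma). ALDOA, the ubiquitous aldolase, was listed at only 314, 343, 311 and 273 (vehicle 1, vehicle 2, octanoate 1, octanoate 2), and it did not pass the test (limma adjusted p 0.277). Per kb of exon that is 136 ± 8.48 in vehicle (SD, n = 2), the lowest of the 30 genes, against 31741 ± 1688 for TPI1, the next enzyme. In GENCODE 29, 68.0% of the ALDOA exon bases are shared with AC093512.2 on the same strand, and the part of that overlap in the low count was not tested. The listed value is therefore not read as the level of this aldolase, and no isoform balance is given for the aldolases.

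Of the 7 genes from triose to pyruvate, TPI1, GAPDH and PGAM1 fell, ENO2 rose and 3 did not pass the test. TPI1, which interconverts the trioses, had 68973 ± 3668 normalised counts in vehicle and 60088 ± 2417 in octanoate (n = 2 each, SD). It fell by 0.20 on the log2 scale (SE 0.06, limma adjusted p 0.0189) and was not called without vehicle 1 or without octanoate 2 (adjusted p up to 0.236). GAPDH, the dehydrogenase that oxidises glyceraldehyde phosphate, had 251662 and 228511 normalised counts in vehicle and 205606 and 200595 in octanoate. It fell by 15.4%, which is -0.24 on the log2 scale (SE 0.07; adjusted p 0.0139 by limma). The gap between its vehicle libraries was as wide as their gap to octanoate, and without vehicle 1 or octanoate 2 GAPDH was not called, nor without octanoate 1 (adjusted p up to 0.159). PGAM1, the phosphoglycerate mutase, had 29796 and 28230 in vehicle and 24577 and 23696 in octanoate. PGAM1 fell by 16.8%, which is -0.27 on the log2 scale (SE 0.06; adjusted p 0.00102 by limma) and stayed called without each library in turn. PGAM1 shares 765 bases at 99.9% identity with another locus in GENCODE 29, so part of its reads can be lost or misplaced. The same holds for TPI1, which shares 750 bases with TPI1P1, and for GAPDH, which shares 1008 bases with GAPDHP1.

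The remaining abundant enzymes of the lower pathway did not pass the test, although their octanoate libraries lay below both vehicle libraries. PGK1, a kinase that makes ATP, had 69133 ± 3248 normalised counts in vehicle and 63887 ± 1427 in octanoate (n = 2 each, SD; limma adjusted p 0.178). ENO1, the ubiquitous enolase, had 291188 ± 12524 and 265344 ± 11750 (n = 2 each, SD; limma adjusted p 0.182). PKM, the pyruvate kinase gene, had 228686 ± 9315 and 209338 ± 9277 (n = 2 each, SD; limma adjusted p 0.189). These 3 had log2 differences between -0.13 and -0.11, and DESeq2 on the recovered reads called each of them lower (adjusted p 0.0427, 0.0175 and 0.0240). PKM is counted as a gene, so its splice forms are not told apart. Shared sequence adds uncertainty: 1081 bases of PGK1 with PGK1P2, 260 of ENO1 with EDARADD and 302 of PKM with PKMP4.

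ENO2, the neuron-type enolase, went against its neighbours. It lies at chr12:6913745-6923698 on the plus strand and had 4021 and 3619 normalised counts in vehicle and 4644 and 4546 in octanoate. ENO2 rose by 20.3%, which is 0.27 on the log2 scale (SE 0.06; adjusted p 0.00202 by limma), although without vehicle 2 the adjusted p was 0.0655. Even so it supplied only 1.01% and 0.965% of enolase counts per kb in vehicle and 1.27% and 1.33% in octanoate.

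**Figure D3:**
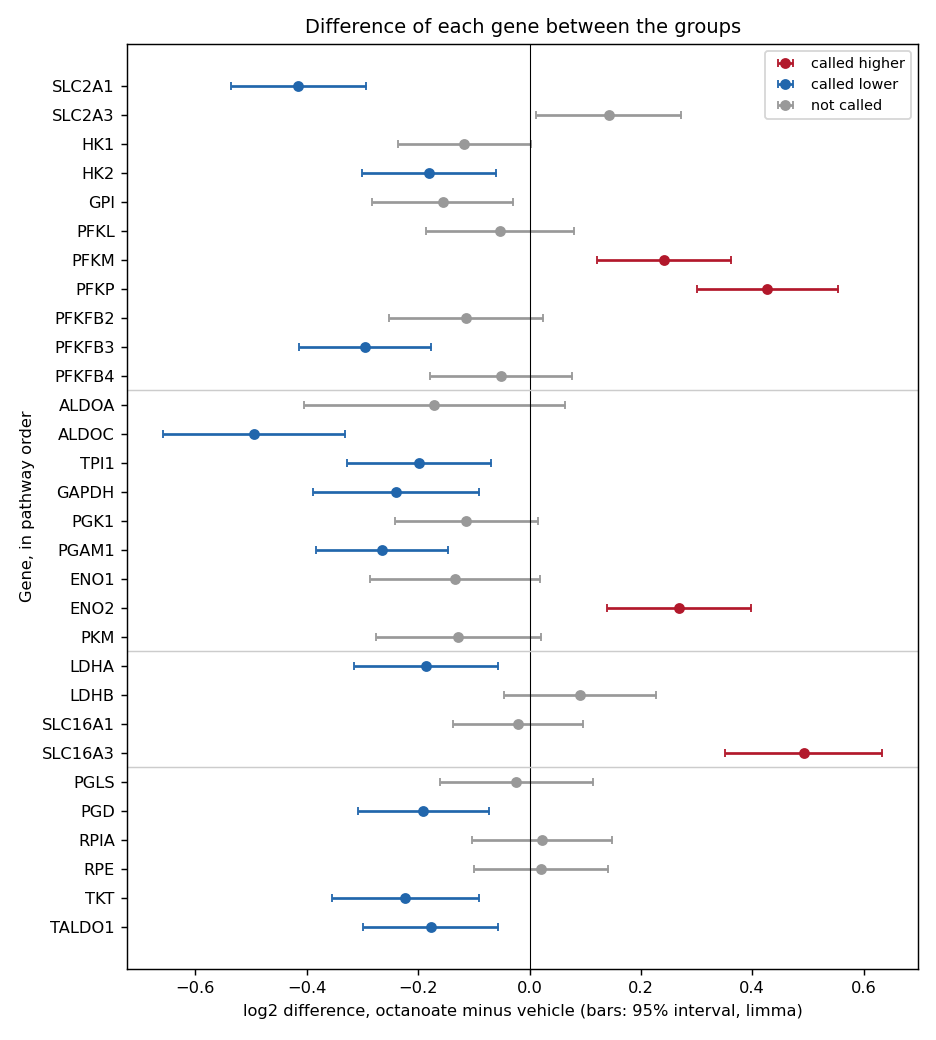
Log2 difference between octanoate and vehicle for each gene (horizontal axis) in pathway order (vertical axis), with the 95% interval from limma. The 4 genes called higher (red) are PFKM, PFKP, ENO2 and SLC16A3, the 11 called lower (blue) reach from SLC2A1 to TALDO1, and most of the genes not called (grey) also lie left of 0.

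Of the genes with a clear difference, 4 are shown with the 250 bases before the start listed in RefSeq. These are the called genes with the largest differences among those with a single start in the RefSeq table (GRCh38.p14): 3 that fell, ALDOC, SLC2A1 and PGAM1, and ENO2, which rose. Each runs 5′ to 3′ on the strand of its gene, with capitals for ACGTG or GCGTG, the core bound by hypoxia-inducible factors, on either strand (read as CACGT or CACGC when on the other).
ALDOC (chr17:28576896-28577145, minus strand): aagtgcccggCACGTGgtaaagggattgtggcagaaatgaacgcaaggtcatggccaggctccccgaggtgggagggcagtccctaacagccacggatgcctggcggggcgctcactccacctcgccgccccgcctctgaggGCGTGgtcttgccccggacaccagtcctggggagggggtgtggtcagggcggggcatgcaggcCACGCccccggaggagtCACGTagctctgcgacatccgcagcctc
SLC2A1 (chr1:42958869-42959118, minus strand): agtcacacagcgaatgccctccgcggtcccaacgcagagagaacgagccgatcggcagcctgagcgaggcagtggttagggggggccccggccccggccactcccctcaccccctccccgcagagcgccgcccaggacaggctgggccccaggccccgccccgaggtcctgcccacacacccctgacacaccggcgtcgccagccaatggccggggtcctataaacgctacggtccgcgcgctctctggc
PGAM1 (chr10:97427568-97427817, plus strand): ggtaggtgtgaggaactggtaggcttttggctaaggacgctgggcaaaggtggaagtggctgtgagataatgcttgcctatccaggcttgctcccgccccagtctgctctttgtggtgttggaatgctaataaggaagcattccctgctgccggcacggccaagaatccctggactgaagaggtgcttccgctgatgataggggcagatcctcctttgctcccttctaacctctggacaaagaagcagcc
ENO2 (chr12:6914330-6914579, plus strand): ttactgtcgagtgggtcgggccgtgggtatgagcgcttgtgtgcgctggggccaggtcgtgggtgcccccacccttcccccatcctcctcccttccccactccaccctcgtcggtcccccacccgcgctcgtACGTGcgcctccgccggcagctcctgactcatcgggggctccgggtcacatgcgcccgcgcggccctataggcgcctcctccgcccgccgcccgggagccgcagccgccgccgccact
ALDOC held the core at 4 places, 1 of which is a palindrome that reads on both strands. ENO2 held it at 1 place, and the printed windows of SLC2A1 and PGAM1 held none. The PGAM1 window lies inside the span that GENCODE gives the gene (chr10:97426160-97433441). The windows of ALDOC, SLC2A1 and ENO2 also lie inside the spans of their genes. For these genes the bases before the span were not searched, so a lack of the core holds for the printed window only. The core is common: it was found before 53.1% of the starts of tested genes and before 51.9% of the 52 starts listed for the 30 genes (27 of the 30 had an entry). Among genes with a single start the shares were 56.8% of 8001 tested genes and 55.6% of 18 of the 30. A match is a description of the letters, and the genes that hold it here include both a riser and a faller.

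Lactate dehydrogenase joins pyruvate and lactate, with the LDHA subunit favouring lactate formation and LDHB the reverse. LDHA had 102020 and 96981 normalised counts in vehicle and 87468 and 87400 in octanoate. LDHA fell by 12.1% (log2 difference -0.19 with SE 0.06; adjusted p 0.0276 by limma), but it was called under 9 of 16 alternatives only, and its adjusted p was 0.0707 after rescaling with TMM factors. LDHB had 102559 and 99695 in vehicle and 112654 and 102861 in octanoate, a log2 difference of 0.09 that did not pass the test (95% interval -0.05 to 0.23, limma adjusted p 0.330). LDHA made up 34.7% and 34.2% of both per kb in vehicle and 29.3% and 31.2% in octanoate. LDHB shares 62.9% of its exon bases with AC010197.2 in GENCODE 29, and LDHA shares sequence with 4 pseudogenes, so the levels of both are uncertain.

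Lactate leaves the cell through monocarboxylate transporters. SLC16A3, which encodes the exporter MCT4 of highly glycolytic cells, lies at chr17:82228397-82261129 on the plus strand. Its normalised counts were 1475 and 1449 in vehicle and 2135 and 1982 in octanoate. SLC16A3 rose by 40.8%, which is 0.49 on the log2 scale (SE 0.07; adjusted p 5.26e-06 by limma), the largest rise of the 30 genes and called under each of 16 alternatives. SLC16A1, which encodes the more widespread MCT1, had 17492 and 17493 in vehicle and 17714 and 16779 in octanoate, so the groups overlapped (log2 difference -0.02, 95% interval -0.14 to 0.10, limma adjusted p 0.822). SLC16A1 stayed the more abundant of the 2 per kb, and SLC16A3 went from 7.07% and 6.96% of the pair in vehicle to 9.81% and 9.63% in octanoate. SLC16A3 shares 482 exon bases with CSNK1D on the opposite strand and whether reads were assigned by strand is not given in the sources used here. CSNK1D had 8296 and 7883 in vehicle and 7878 and 7421 in octanoate. The part of the shared bases in the SLC16A3 count was not tested. SLC16A3 also shares runs of 100 bases or more at 95% identity or above with 43 other genes, which makes its count uncertain.

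In the oxidative arm of the pentose phosphate pathway, PGD, the phosphogluconate dehydrogenase that makes NADPH, fell from 14274 ± 659 to 12500 ± 66.8 normalised counts (n = 2 each, SD), which is -0.19 on the log2 scale (SE 0.06; adjusted p 0.0129 by limma). PGLS, the lactonase before it, had 3205 ± 256 and 3149 ± 151 (n = 2 each, SD; limma adjusted p 0.827).

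In the non-oxidative arm, TKT, the transketolase that moves pieces of 2 carbons between sugars, had 58389 and 53146 normalised counts in vehicle and 49484 and 46036 in octanoate. TKT fell by 14.4%, which is -0.22 on the log2 scale (SE 0.06; adjusted p 0.00971 by limma). TALDO1, the transaldolase, fell from 8937 ± 571 to 7894 ± 50.4 (n = 2 each, SD), which is -0.18 on the log2 scale (SE 0.06; adjusted p 0.0247 by limma). The isomerase gene RPIA had 3496 ± 121 and 3550 ± 17.7, and the epimerase gene RPE 4898 ± 33.4 and 4972 ± 142 (n = 2 each, SD, vehicle then octanoate). They had log2 differences of 0.02 each (limma adjusted p 0.822 and 0.825), with overlapping groups. PGD, TKT and TALDO1 were not called without vehicle 1 or without octanoate 2, nor were PGD and TALDO1 without octanoate 1 (highest adjusted p 0.137, 0.175 and 0.269). RPE overlaps KANSL1L on the opposite strand over 23.8% of its exon bases, and it shares 1777 bases at 96.9% identity with RPEL1.

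**Figure D4:**
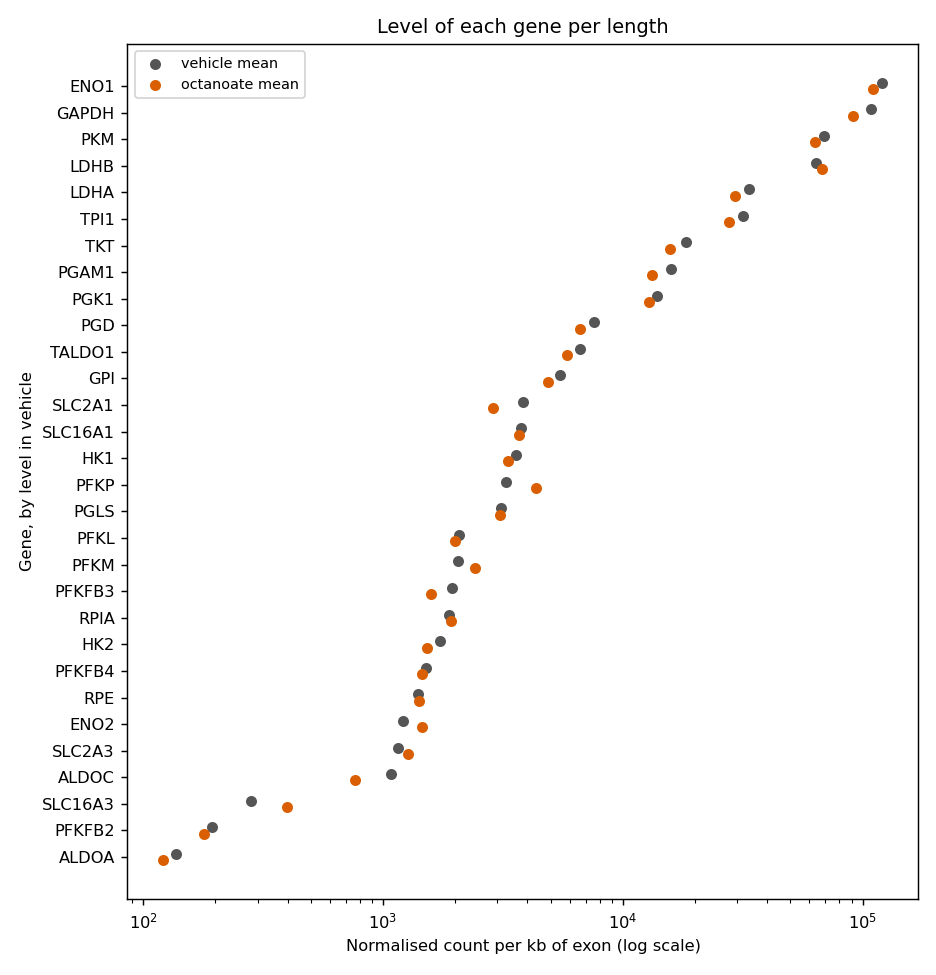
Mean normalised count per kb of exon (horizontal axis, log scale) of each gene in vehicle (grey) and octanoate (orange), ordered by level in vehicle. ENO1 and GAPDH stand at the top, near 121126 and 107953 in vehicle, and PFKFB2 and ALDOA at the bottom, and the differences between the groups are small beside the range between genes. The listed ALDOA value is not read as its level.

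Per length, the genes covered a wide range. In vehicle ENO1 had 121126 ± 5210 normalised counts per kb of exon, GAPDH 107953 ± 7361, PKM 69048 ± 2813 and LDHB 63762 ± 1277 (n = 2 each, SD). LDHA followed at 33513 ± 1200 and TPI1 at 31741 ± 1688 (n = 2 each, SD), and these neighbours overlapped between libraries, unlike those above them. The genes at the control points were lower: SLC2A1 had 3839 ± 212, PFKP 3248 ± 233 and HK2 1726 ± 57.3 (n = 2 each, SD). PFKP rose to 4365 ± 210 in octanoate and SLC2A1 fell to 2879 ± 123 (n = 2 each, SD), so their order was exchanged. SLC16A3, at 283 ± 3.54 in vehicle and 398 ± 20.9 in octanoate (n = 2 each, SD), remained among the 3 lowest listed values with PFKFB2 and ALDOA. The ALDOA value is not read as its level. Exon lengths are those of the GENCODE 29 basic set, which may differ from the annotation the authors counted with.

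The other genes of these pathways and of the branches that leave them were taken from a list of 81 names, of which 80 were in the table and 60 were tested. Of these 60, 15 rose and 3 fell (25.0% and 5.0%, beside 16.2% and 13.7% of all tested genes), and the median log2 difference was 0.06. By group, 1 of 8 further sugar transporters rose and 1 fell, 1 of 10 further isoforms and side enzymes of glycolysis rose and 1 fell, and 1 of 8 further lactate genes rose. In the pentose phosphate and ribose group 1 of 7 rose. In gluconeogenesis and the glycerol phosphate shuttle 4 of 12 rose. In the glycogen, hexosamine and polyol branches 7 of 15 rose and 1 fell.

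SLC2A13, a transporter of the glucose transporter family that carries myo-inositol with protons, had the largest change. Its normalised counts were 1474 and 1532 in vehicle and 4055 and 4134 in octanoate, a 2.72-fold rise (log2 difference 1.45 with SE 0.06; adjusted p 1.25e-14 by limma). HKDC1, a hexokinase-like enzyme, had 639 and 681 in vehicle and 381 and 375 in octanoate, a fall of 0.80 on the log2 scale (log2 difference -0.80 with SE 0.09; adjusted p 3.61e-07 by limma). In both genes the gap between the groups was far wider than the gap within them.

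The other 3 genes that were called with a log2 difference of at least 0.5 and a mean of at least 100 were in the hexosamine and gluconeogenesis groups. GFPT2, which opens the hexosamine pathway from fructose phosphate, had 5213 and 4900 normalised counts in vehicle and 7980 and 8045 in octanoate (log2 difference 0.66 with SE 0.06; adjusted p 3.38e-09 by limma). Its isoform gene GFPT1 and UAP1, which makes the activated sugar at the end of that pathway, rose by 0.49 and 0.34 on the log2 scale (limma adjusted p 4.61e-07 and 6.17e-05). GFPT1 and UAP1 were named after their values were seen. PGM3, another gene of that pathway, had a log2 fold change of only 0.09 in the authors' deposited table (DESeq2 adjusted p 0.385). PC, the pyruvate carboxylase of mitochondria, had 4403 and 4075 in vehicle and 6252 and 5964 in octanoate (log2 difference 0.53 with SE 0.06; adjusted p 2.96e-07 by limma). PCK2, the mitochondrial carboxykinase of gluconeogenesis, had 2527 and 2223 in vehicle and 3720 and 3424 in octanoate (log2 difference 0.59 with SE 0.07; adjusted p 4.16e-07 by limma), though with the variance prior that ignores expression level its adjusted p was 0.0590. In each of GFPT2, PC and PCK2 both octanoate libraries were above both vehicle libraries. TKTL1, a gene related to transketolase and named after its values were seen, had only 28.5 and 21.3 in vehicle and 67.4 and 58.5 in octanoate, a log2 difference of 1.31.

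**Figure D5:**
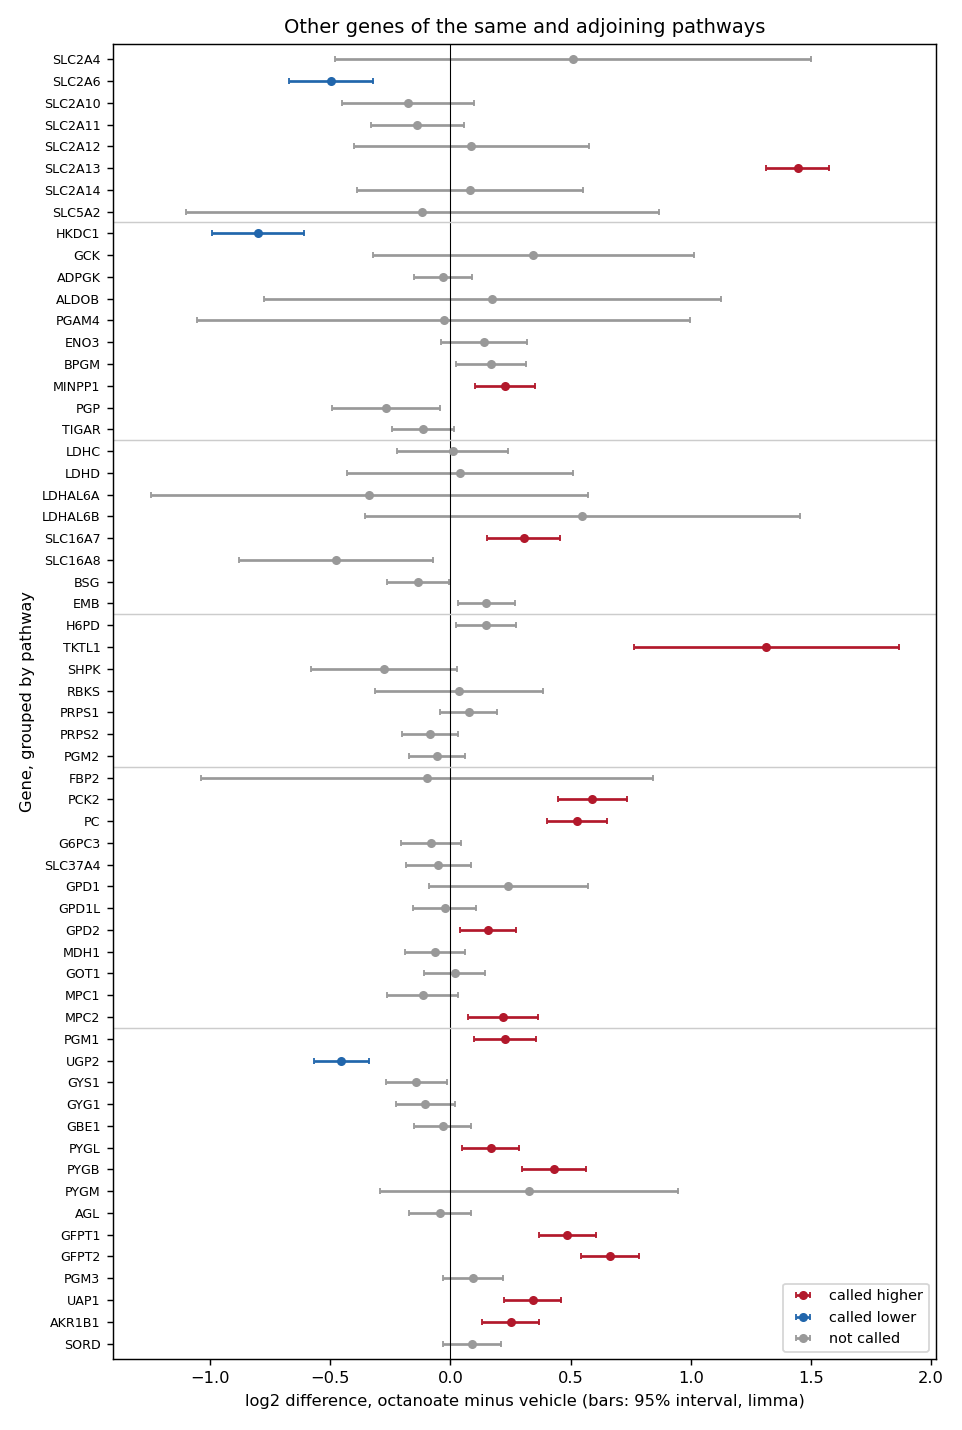
Log2 difference between octanoate and vehicle (horizontal axis) with the 95% interval from limma for the 60 tested genes outside the 30, grouped by pathway (vertical axis; grey lines separate groups). The 15 genes called higher are red and the 3 called lower (SLC2A6, HKDC1, UGP2) are blue; SLC2A13 lies farthest right at 1.45.

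In the authors' deposited table the same 15 of the 30 genes had an adjusted p under 0.05, 4 higher and 11 lower, each with the sign found here, from the same 4 libraries. Of all genes with a value in the authors' deposited table, 6.89% were higher and 6.01% lower by that rule. The log2 fold change in the authors' deposited table was -0.42 for SLC2A1, 0.43 for PFKP, -0.49 for ALDOC and 0.49 for SLC16A3. With 2 libraries a group, exact permutation reaches a two-sided p of 0.33 at best, so genes were tested only by models that share variance information.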

How the data were processed

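RNA of A375 cells was sequenced in 4 libraries, 2 given vehicle and 2 given octanoate. The authors deposited a signal per gene and library, a count divided by 1 size factor per library, and, per the file headers, their own comparison table, which lists p-values, a test score, the log2 fold change, its error and a mean signal. Per the submitters' processing notes, bcl2fastq 2.17, Trim Galore, STAR 2.4, Picard, HTSeq 0.9.1, DESeq2 and hg38 were used; the annotation and strand setting are not given in the sources used here. Each positive value was a whole multiple of its library's smallest (100% of values, within 0.01 of a read), so whole reads were recovered.

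limma 3.58.1 in R 4.3.3 was fitted to log2(normalised count + 1) of the 20250 genes with a mean of at least 10, with a trend in the variance prior and treatment as the only term; log2 differences are on that scale and understate changes of low genes. Tests are two-sided, with Benjamini-Hochberg adjustment over all tested genes. Within each group the libraries were further apart than counting noise (chi-square per degree of freedom 4.77 in vehicle and 6.50 in octanoate) and were therefore not merged; this spread may be technical. edgeR 4.0.16 and DESeq2 1.42.0 were run on recovered reads, and the fits were tested on simulated data. GENCODE 29 gave exon lengths and overlaps, with blastn 2.17.0 for shared sequence at 95% identity over 100 bases.

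The members and lists were chosen with earlier results of these data known. Values per library are given for members called with an absolute log2 difference of at least 0.2, and for other pathway genes at 0.5 with a mean of at least 100; members below that are given in short. Of the list of other pathway genes, 1 is not reported here and was left out of its counts. Alternatives are listed in the closing section.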

Additional observations from a re-analysis of the deposited data

How the results depend on the processing

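The median log2 difference of the 30 genes kept its sign under every one of 16 alternatives, but several of these cannot change it. It stayed at -0.12 with either filter, without a trend in the variance prior, under the replicate block and over genes found in GENCODE 29. Those settings alter only the variance or the other genes. The median was -0.11 with TMM factors, -0.13 with equal column totals, and between -0.17 and -0.09 with 1 library left out. Of the 15 called genes, all 15 remained called with pseudocounts of 0.5 or 5, a filter at a mean of 50, equal column totals, edgeR, DESeq2, the replicate block and over genes found in GENCODE 29. With TMM factors 13 remained, and with trends on GC content and length removed 14. The scaling moved the lower calls both ways. They were 16 of the 30 genes with equal column totals and 9 with TMM factors, beside the 11 given above. Over the 20250 tested genes the lower calls were 3234, 2424 and 2777 in that order. With no filter on low values 2 were called higher and 3 lower, and without a trend in the variance prior 1 and 0. For the other pathway genes the higher calls were 8 and 5 under those 2 settings, where 3.68% and 5.41% of all genes tested were called higher. Their lower calls were 5 with equal column totals, where 3234 of all 20250 tested genes were lower. With the GC content and length trends removed they were 7, where 3098 of the 15189 genes then tested were lower. Over all genes that check is void, since 75.0% of tested genes have an entry, although each of the 30 has one. The cause of these shifts was not tested. Leaving out 1 library gave 2 to 5 higher and 4 to 12 lower of the 30 genes, and 11 to 12 higher and 3 to 5 lower of the other genes.

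Nothing in the labels ties libraries of the same number, so they were not treated as pairs. Under a replicate block 5 of the 30 genes were called higher and 16 lower, and 18 and 9 of the other genes. Calls over all 20250 tested genes were 4307 higher and 4069 lower under the block, beside 3271 and 2777 without it. The deviations of same-numbered libraries had a correlation of 0.13 across all tested genes and 0.39 across those with a mean of at least 1000, the range of 29 of the 30 genes; genes are not independent replicates.

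From plain counts in place of counts per kb, the share rose by 5.02 percentage points for PFKP, 0.41 for ENO2 and 2.95 for SLC16A3, against 5.62, 0.31 and 2.71 per kb. The smallest change called among the 30 genes was that of TALDO1, which fell by 11.7%. How depth limits the calls was not tested.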
